A study of Mus musculus with 13 samples.

Results

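The 34 genes described here make proteins that cells need to copy their DNA and to divide. They were taken by symbol from a named list, out of the 53278 symbols in the count files. The rule uses no measured value, but the list was chosen with earlier results of these data known. All 34 were found, and all 34 passed the filter on low counts that left 15690 genes for testing. For this account they were divided by role into 12 genes of S phase and its onset (Ccne1, Ccne2, Mcm2 to Mcm7, Pcna, Tyms, Rrm1 and Rrm2) and 22 genes of G2 phase and mitosis. The hearts came from male C57Bl6 mice of wild-type genotype that were 17 weeks old at harvest, 5 weeks after surgery or injection at 12 weeks. In the IR edit group (4 hearts) the mice underwent ischaemia and reperfusion (IR), in which blood flow to heart muscle is stopped and restored, and received a functional editing system for CaMKIIδ. In the IR virus group (3 hearts) they underwent IR and received a control virus, and in the IR group (3 hearts) they underwent IR with no injection. In the Sham group (3 hearts) they had sham surgery. CaMKIIδ is a calcium-activated kinase of heart muscle, and the study's title names the removal of its oxidation by base editing as the aim. The labels used here do not name the kind of virus, its dose or the cells it reaches. Each library is whole-heart RNA, so fewer dividing cells and less RNA per dividing cell cannot be told apart.

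A dividing cell first turns on the genes of DNA replication, among them the Mcm helicase that opens the double helix, the sliding clamp Pcna and the enzymes that make DNA building blocks. It later turns on the genes of mitosis, which condense chromosomes, build the spindle and separate the daughter cells, and whose transcripts and proteins are mostly removed as the cell leaves mitosis. Most heart muscle cells of an adult mouse have left the cell cycle, while fibroblasts, endothelial cells and immune cells of the heart can divide after injury.

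The deposited totals ran from 20634820 to 27265276 reads per library, and the 34 genes together took 3038 to 5247 reads of each. Heart muscle markers were present as labelled: all 8 were detected in every library, with summed levels of 38559 to 47394 CPM (reads of a gene relative to the TMM-scaled size of its library) in IR edit hearts, 44230 to 47556 in IR virus hearts, 41070 to 43663 in IR hearts and 41576 to 50324 in Sham hearts. The IR edit hearts also stood apart from each other over all tested genes. On the first principal component of all tested genes, which held 27.5% of the variance, hearts 2 and 4 of IR edit lay at -34.0 and -45.1, hearts 1 and 3 at -10.2 and 2.80, and the 9 hearts of the other groups between -3.83 and 26.5. Results that rest on IR edit hearts are therefore given with and without single hearts.

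Promoters of 28 of the 34 genes were matched in RefSeq (GRCm38.p6), as windows of 300 bases that run from 250 bases before the start to 50 after it. Ccna2, Aurkb, Kif20a, Tpx2, Mcm4 and Ccne2 were not matched. As background, CCAAT is the box bound by NF-Y. The cell cycle genes homology region (CHR), searched as TTTGAA, is found in promoters of mitosis genes. The E2F site, searched in the forms TTTCGCGC, TTTGGCGC and TTTCCCGC, is found in promoters of replication genes. All were searched on both strands. The members are counted as genes, each once if any of its windows matched, and Mcm7 and Prc1 had more than 1 window. The shares of all promoters are per window. CCAAT occurred in 16 of 18 mitosis genes (88.9%) and 8 of 10 S phase genes (80.0%), against 37.4% of all 32851 promoters. The CHR occurred in 13 of 18 mitosis genes (72.2%) and 1 of 10 S phase genes, against 17.9% of all promoters. An E2F form occurred in 1 of 18 mitosis genes (5.56%) and 4 of 10 S phase genes (40.0%), against 1.84% of all promoters. The windows of 5 genes show this layout. Ube2c (chr2:164769679-164769978, plus strand) passed the test below. Cdk1 (chr10:69352863-69353162, minus strand) and Mki67 (chr7:135716330-135716629, minus strand) are the kinase that drives mitosis and a common marker of cycling cells. Cenpf (chr1:189688037-189688336, minus strand) carries the same boxes but ran the other way in level, and Mcm6 (chr1:128359656-128359955, minus strand) stands for the S phase genes. Capitals mark matches to the CCAAT box, the CHR or an E2F form on either strand, and overlapping matches run together. A match is a description of the letters in these windows and not evidence of binding.
Ube2c: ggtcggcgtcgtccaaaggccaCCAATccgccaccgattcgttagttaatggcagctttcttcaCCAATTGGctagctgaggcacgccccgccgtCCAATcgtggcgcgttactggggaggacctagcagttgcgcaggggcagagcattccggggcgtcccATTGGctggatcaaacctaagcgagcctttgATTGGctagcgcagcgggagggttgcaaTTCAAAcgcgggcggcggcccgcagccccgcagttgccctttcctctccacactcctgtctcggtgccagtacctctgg
Cdk1: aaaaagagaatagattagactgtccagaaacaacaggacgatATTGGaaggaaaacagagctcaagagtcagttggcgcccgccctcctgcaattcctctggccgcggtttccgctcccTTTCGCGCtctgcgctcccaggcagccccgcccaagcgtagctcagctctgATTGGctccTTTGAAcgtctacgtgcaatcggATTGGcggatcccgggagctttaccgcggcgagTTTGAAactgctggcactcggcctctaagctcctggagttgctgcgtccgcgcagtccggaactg
Mki67: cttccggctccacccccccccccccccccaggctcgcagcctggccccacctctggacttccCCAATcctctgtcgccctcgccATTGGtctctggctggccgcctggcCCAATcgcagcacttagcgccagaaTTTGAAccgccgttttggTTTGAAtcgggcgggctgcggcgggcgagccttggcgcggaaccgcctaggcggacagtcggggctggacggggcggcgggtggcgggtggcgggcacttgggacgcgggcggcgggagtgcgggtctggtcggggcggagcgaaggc
Cenpf: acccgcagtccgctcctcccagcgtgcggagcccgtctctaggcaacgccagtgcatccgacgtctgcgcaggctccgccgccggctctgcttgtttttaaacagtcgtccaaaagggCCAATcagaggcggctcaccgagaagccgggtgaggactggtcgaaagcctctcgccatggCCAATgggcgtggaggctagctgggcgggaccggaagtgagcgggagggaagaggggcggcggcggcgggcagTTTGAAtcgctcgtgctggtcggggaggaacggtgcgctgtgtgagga
Mcm6: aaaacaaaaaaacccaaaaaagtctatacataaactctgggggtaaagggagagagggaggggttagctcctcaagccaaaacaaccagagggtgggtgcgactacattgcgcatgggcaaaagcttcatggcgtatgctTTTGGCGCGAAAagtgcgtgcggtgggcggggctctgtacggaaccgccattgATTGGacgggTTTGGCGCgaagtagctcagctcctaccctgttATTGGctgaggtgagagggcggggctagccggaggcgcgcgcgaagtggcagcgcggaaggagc

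The mitosis genes other than Cenpf had their highest summed level in 3 of the 4 IR edit hearts. The summed level of the S phase genes was similar in all groups. Cenpf ran the other way and is treated separately, a choice made after its values were seen. The summed level of the 21 other mitosis genes was 60.4, 88.9, 31.1 and 79.5 CPM in IR edit hearts 1 to 4, 41.4, 53.8 and 45.1 CPM in IR virus hearts, 42.8, 43.7 and 34.3 CPM in IR hearts, and 31.0, 26.9 and 53.8 CPM in Sham hearts. Hearts 1, 2 and 4 of IR edit were above every other heart, whereas heart 3 was below all IR virus and IR hearts and within the Sham range. The group means were 65.0 ± 25.5 CPM in IR edit (SD, n = 4), 46.8 ± 6.35 in IR virus, 40.3 ± 5.19 in IR and 37.2 ± 14.5 in Sham (n = 3 each). The log2 ratio of mean sums against Sham was 0.80 for IR edit, 0.33 for IR virus and 0.11 for IR. With Cenpf included, the sum of all 22 mitosis genes was 108, 120, 87.8 and 101 CPM in IR edit hearts, 76.4, 87.3 and 85.7 CPM in IR virus hearts, 78.5, 80.7 and 52.7 CPM in IR hearts, and 97.0, 88.5 and 135 CPM in Sham hearts. Sham heart 3 then had the highest sum, and the log2 ratios against Sham were -0.04 for IR edit, -0.36 for IR virus and -0.60 for IR. No test was made on a sum over the genes.

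The summed level of the 12 S phase genes was 86.8, 82.0, 69.4 and 88.4 CPM in IR edit hearts, 85.6, 89.9 and 91.2 CPM in IR virus hearts, 85.6, 85.5 and 84.6 CPM in IR hearts, and 80.4, 81.1 and 90.1 CPM in Sham hearts. IR edit heart 3 was the lowest of all hearts, and the other 12 lay between 80.4 and 91.2 CPM. This sum does not stand for each gene. Its largest parts were Rrm1, Pcna, Mcm6 and Mcm4, with means over the 13 hearts of 19.3, 15.1, 10.5 and 10.2 CPM. In IR edit against Sham 7 of the 12 genes had positive log2 fold changes and 5 negative ones. The total over all 34 genes was 186 ± 19.6 CPM in IR edit hearts, 172 ± 8.70 in IR virus hearts, 156 ± 16.2 in IR hearts and 191 ± 30.1 in Sham hearts. The total contained Cenpf, which made up 11.4% to 37.2% of it per heart, and without Cenpf the means were 147 ± 32.5 CPM in IR edit hearts, 136 ± 8.37 in IR virus hearts, 126 ± 5.76 in IR hearts and 121 ± 19.8 in Sham hearts. The log2 ratio of IR edit to Sham was -0.04 for all 34 genes and 0.28 for the 33 without Cenpf. The sign for all 34 was not stable, since the ratio was 0.06 with plain library totals, 0.03 without IR edit heart 3 and 0.10 without Sham heart 3.

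**Figure D1:**
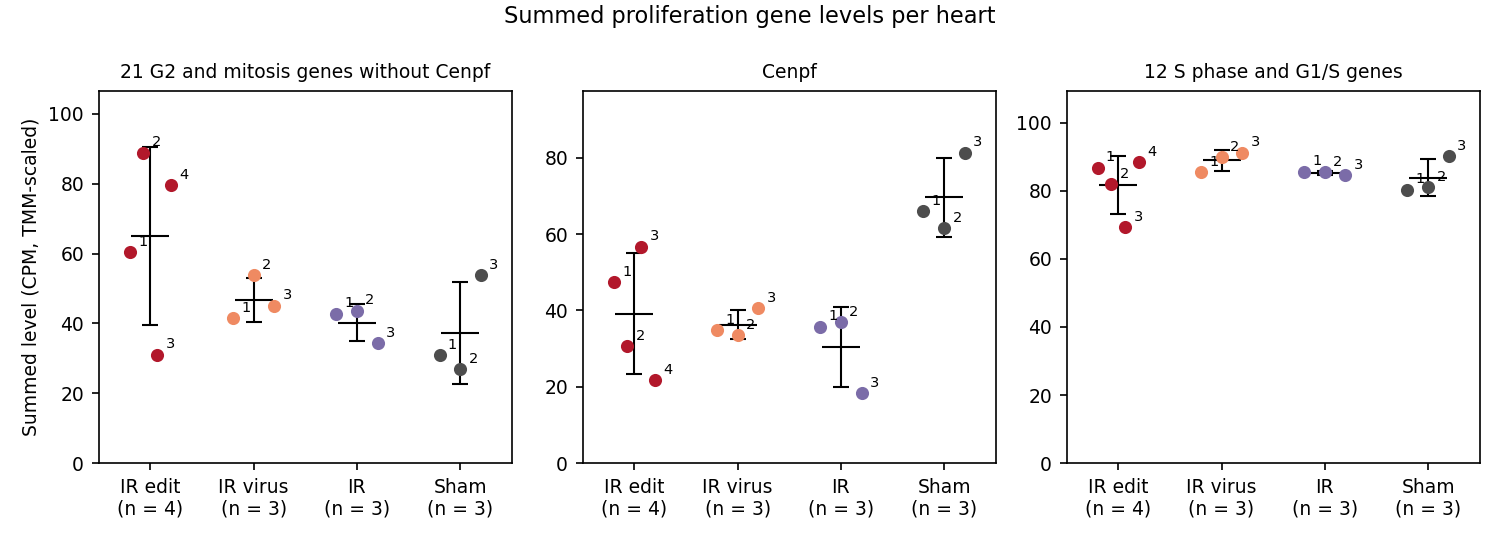
Summed CPM (vertical axes) of the 21 mitosis genes without Cenpf, of Cenpf alone and of the 12 S phase genes in each heart, by group; points carry the replicate number, and bars give mean ± SD. The mitosis sum is highest in IR edit hearts 1, 2 and 4 (60.4 to 88.9 CPM), Cenpf is highest in the 3 Sham hearts (61.6 to 81.4 CPM), and the S phase sum differs little between groups.

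The order of hearts was shared by nearly all mitosis genes. Among the 4 IR edit hearts, heart 3 was lowest for 21 of the 21 mitosis genes other than Cenpf, and heart 2 was highest for 16. IR edit heart 2 exceeded all 9 hearts of the other groups for 20 of the 21 genes, heart 4 for 17 and heart 1 for 10, while heart 3 did so for 0 and was below all 9 for 8. Sham heart 3 was the highest Sham heart for 19 of the 21, IR virus heart 2 the highest of its group for 16 and IR heart 3 the lowest of its group for 16. IR edit had the highest group mean for 19 of the 22 mitosis genes, and Sham the lowest for 14 and IR for 8. The 12 S phase genes ran otherwise: IR virus had the highest group mean for 8 of them, and IR edit heart 3 was the lowest IR edit heart for 10. All genes of a heart share 1 library, so these counts describe hearts and are not independent observations.

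**Figure D2:**
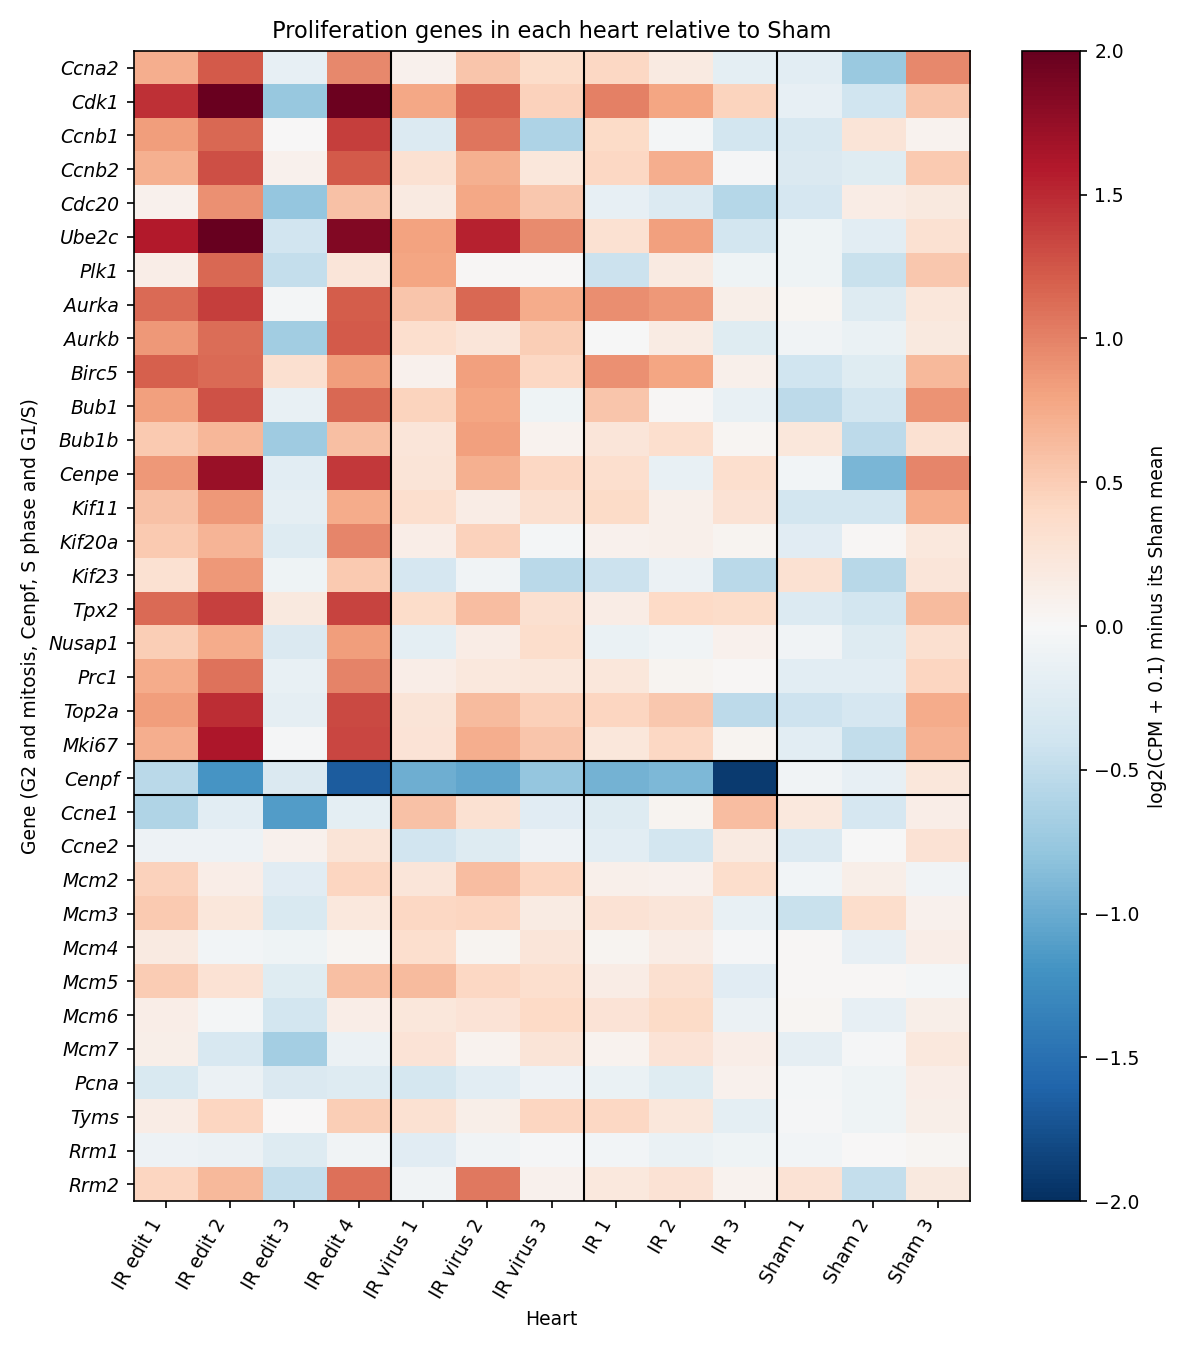
Level of each of the 34 genes (rows, by role) in each of the 13 hearts (columns, by group), as log2(CPM + 0.1) minus the mean of the Sham hearts; the colour scale runs from -2 to 2. IR edit hearts 1, 2 and 4 are high over most mitosis rows, IR edit heart 3 is low, and the Cenpf row is low in all injured hearts.

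The comparison of IR edit with Sham hearts asks how injured hearts given the editing system differ from uninjured ones. Of the 34 genes, 2 rose (Tpx2 and Ube2c) and 0 fell by edgeR's quasi-likelihood test with Benjamini-Hochberg adjustment over all genes, where 4.61% of all tested genes rose and 3.4% fell. At an unadjusted p under 0.05 the numbers were 14 higher and 2 lower, together 16 of 34, where 23.6% of all tested genes passed. The median log2 fold change was 0.88 over the 22 mitosis genes, of which 21 were positive, and 0.03 over the 12 S phase genes, against -0.00 over all tested genes. The share of all tested genes that were positive was 49.8%. DESeq2's Wald test called 5 genes higher (Aurka, Cdk1, Prc1, Tpx2 and Ube2c) and 0 lower, where it called 5.86% of all genes higher and 4.14% lower.

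Tpx2, which activates the kinase Aurora A and helps to nucleate spindle microtubules, was at 3.45, 4.08, 1.76 and 4.05 CPM in IR edit hearts against 1.25, 1.16 and 2.41 CPM in Sham hearts. IR edit heart 3 lay below the highest Sham heart, so the groups overlapped. It rose by 1.08 ± 0.28 on the log2 scale (SE; edgeR's quasi-likelihood test, adjusted p = 0.0313). Ube2c, the ubiquitin-conjugating enzyme of the anaphase-promoting complex, was at 1.30, 1.75, 0.259 and 1.58 CPM in IR edit hearts (35, 39, 5 and 39 reads) against 0.340, 0.301 and 0.473 CPM in Sham hearts (9, 7 and 10 reads). Its level in IR edit heart 3 was below every Sham heart, and the other 3 were above every Sham heart. It rose by 1.74 ± 0.50 (adjusted p = 0.0449). Both calls depended on single hearts. Without IR edit heart 2 the adjusted p was 0.0958 for Tpx2 and 0.127 for Ube2c, without IR edit heart 4 it was 0.0901 and 0.116, without Sham heart 1 it was 0.117 and 0.121, and without Sham heart 2 it was 0.113 and 0.125. Ube2c was also lost without IR edit heart 1 (0.066) or Sham heart 3 (0.0815). The exons of Ube2c overlap those of Tnnc2 over 22.8% of their length, and Tnnc2 had 1 read in all 13 libraries.

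Leaving out IR edit heart 3 had the opposite effect. With the 3 other IR edit hearts against Sham, 13 mitosis genes passed as higher and Cenpf as lower by the same test: Ube2c (2.04 ± 0.35, adjusted p = 0.00171), Cdk1 (1.88 ± 0.29, adjusted p = 0.000957), Aurka (1.36 ± 0.28, adjusted p = 0.0056), Tpx2, Cenpe, Aurkb, Mki67, Ccnb2, Top2a, Birc5, Prc1, Kif20a and Nusap1, with log2 fold changes of 0.70 to 2.04. Of all tested genes 7.98% were then higher and 7.04% lower, and the number called was 2351, against 1257 with all hearts. Leaving out Sham heart 3, the highest Sham heart, gave 4 calls (Ccna2, Kif11, Mki67 and Tpx2), and 664 calls over the 15949 genes tested. Heart 3 of IR edit has the label of its group and no stated fault, and the values with all 13 hearts are the ones reported.

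The kinase that drives entry into mitosis, Cdk1, was at 2.30, 3.32, 0.414 and 3.28 CPM in IR edit hearts against 0.680, 0.560 and 1.18 CPM in Sham hearts. IR edit heart 3 was below every Sham heart and the other 3 were above them all. Its log2 fold change was 1.56 ± 0.48 and did not pass (adjusted p = 0.0575). Of its partner cyclins, Ccnb1 had only 6 to 24 reads per IR edit heart and 6 to 9 per Sham heart, with a log2 fold change of 1.13 ± 0.49 (adjusted p = 0.17); that of Ccnb2 was 1.0 ± 0.35 (adjusted p = 0.0954) and that of Ccna2 0.64 ± 0.36 (adjusted p = 0.297). Ccnb2 has a processed copy, Ccnb2-ps, that held 466 reads over the 13 libraries, so reads may be split between them.

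Mki67, the chromosome-coating protein used as a marker of cycling cells, was at 12.2, 22.8, 7.19 and 18.7 CPM in IR edit hearts against 6.34, 5.21 and 11.9 CPM in Sham hearts. Top2a, which untangles DNA before chromosomes separate, was at 9.31, 14.7, 4.55 and 13.1 CPM in IR edit hearts against 3.89, 4.09 and 8.80 CPM in Sham hearts. Hearts 1, 2 and 4 of IR edit exceeded every Sham heart for both genes, and heart 3 did not. The log2 fold changes were 0.97 ± 0.32 for Mki67 (adjusted p = 0.0771) and 0.92 ± 0.36 for Top2a (adjusted p = 0.131).

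Apart from Cenpf, the other mitosis genes had positive log2 fold changes that did not pass the test. The Aurora kinases and Birc5 (survivin), a partner of Aurora B, had 1.14 ± 0.35 for Aurka, 0.94 ± 0.38 for Aurkb and 0.99 ± 0.36 for Birc5, with adjusted p of 0.0581, 0.145 and 0.105. The spindle checkpoint and kinetochore genes Bub1, Bub1b and Cenpe had 0.85, 0.35 and 1.0. The kinesins Kif11, Kif20a and Kif23, which move spindle and midzone microtubules, had 0.50, 0.58 and 0.41, and the microtubule bundlers Prc1 and Nusap1 had 0.75 and 0.52. Cdc20, the activator of the anaphase-promoting complex, and Plk1, a mitotic kinase, had 0.38 and 0.43. Exons of Kif20a overlap Cdc23 over 29.3% of their length, a gene with 9490 reads over the libraries, so the counts of Kif20a are uncertain where counting did not use strand.

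**Figure D3:**
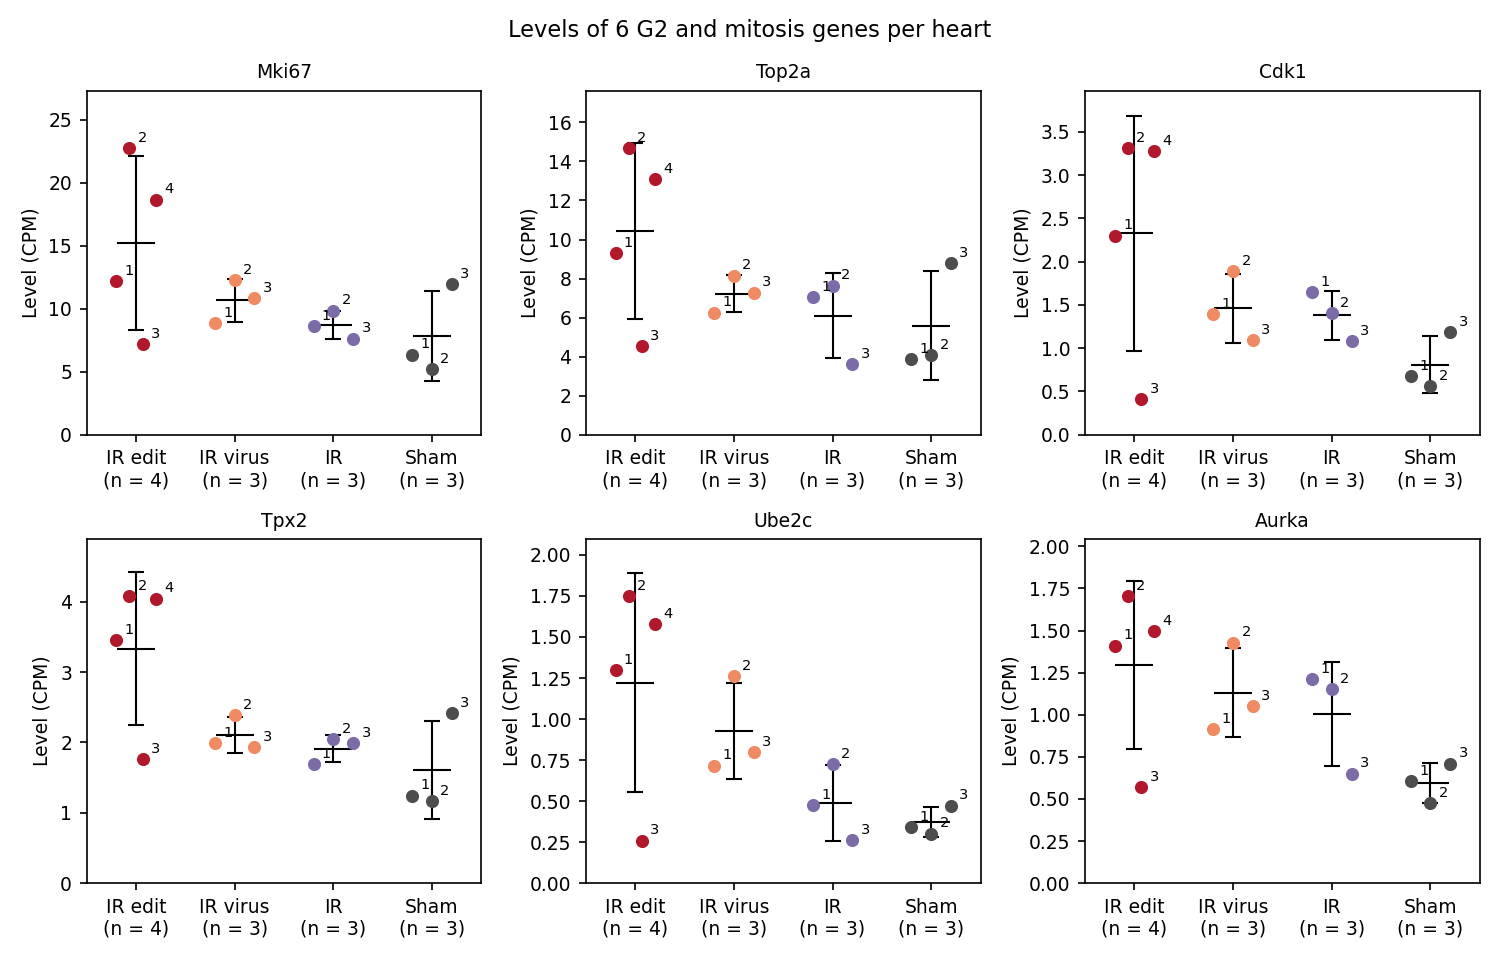
CPM (vertical axes) of Mki67, Top2a, Cdk1, Tpx2, Ube2c and Aurka in each heart, by group; points carry the replicate number and bars give mean ± SD. In each panel IR edit hearts 1, 2 and 4 lie above the Sham hearts and IR edit heart 3 below the highest Sham heart.

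Cenpf ran against the other mitosis genes. It encodes a large protein of kinetochores and microtubules, and its loss from mouse heart muscle is known to cause dilated cardiomyopathy. Its level was 47.5, 30.6, 56.7 and 21.7 CPM in IR edit hearts, 35.0, 33.5 and 40.5 CPM in IR virus hearts, 35.8, 37.0 and 18.4 CPM in IR hearts, and 66.0, 61.6 and 81.4 CPM in Sham hearts. Every injured heart was below every Sham heart. Within IR edit, heart 3, lowest for the 21 other mitosis genes, had the highest Cenpf, and heart 4 the lowest. With a total of 13252 reads it was the most abundant of the 34 genes in reads and took 21.4% to 69.6% of the summed CPM of the 22 mitosis genes in a heart. Per kilobase of exon its mean level over the 13 hearts, 2.82 CPM per kilobase, came after those of Pcna (6.30) and Mcm4 (2.85) and was above that of every other mitosis gene, the next being Mki67 at 1.09. The gene lies at chr1:189640606-189688086 (GRCm38, minus strand), and no other annotated gene overlaps its exons.

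The log2 fold change of Cenpf was -0.83 ± 0.27 in IR edit against Sham (adjusted p = 0.0664), -0.94 ± 0.29 in IR virus against Sham (adjusted p = 0.182) and -1.20 ± 0.29 in IR against Sham (adjusted p = 0.237), by edgeR's quasi-likelihood test with all 13 hearts. None of the values passed, and the 3 comparisons share the Sham hearts. When only the 2 groups compared were fitted, Cenpf passed in IR virus against Sham (-0.95, adjusted p = 0.00596) and in IR against Sham (-1.20, adjusted p = 0.0339), but not in IR edit against Sham (adjusted p = 0.124). Against Sham, these fits called 246 of 15148 genes tested for IR edit, 203 of 15061 for IR virus and 115 of 14963 for IR. Cenpf passed in IR edit against Sham without IR edit heart 3 (-1.07, adjusted p = 0.012).

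The S phase genes held no call in IR edit against Sham, with 7 of 12 positive and 1 of 12 at an unadjusted p under 0.05. The Mcm genes encode the subunits of the replicative helicase. Mcm2 was at 6.71, 5.33, 4.14 and 6.55 CPM in IR edit hearts against 4.64, 5.30 and 4.64 CPM in Sham hearts, and the groups overlapped; its log2 fold change was 0.24 ± 0.16 (adjusted p = 0.411). Those of Mcm3, Mcm4, Mcm5, Mcm6 and Mcm7 were 0.17, 0.02, 0.35, -0.02 and -0.21. Pcna was at 13.5, 15.4, 13.6 and 14.0 CPM in IR edit hearts against 16.2, 15.7 and 18.3 CPM in Sham hearts, so that all 4 were below all 3. The difference was small, at -0.24 ± 0.10 on the log2 scale, and did not pass (adjusted p = 0.143). Rrm1 and Rrm2, the subunits of ribonucleotide reductase, had -0.13 and 0.52, and Tyms, which makes thymidylate, had 0.30. The cyclins of S phase entry, Ccne1 and Ccne2, had -0.56 and 0.03.

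Groups did not overlap for 0 genes higher and 3 lower (Pcna, Rrm1 and Cenpf) in IR edit against Sham, where 8.22% of all tested genes were higher and 8.18% lower without overlap. Of the 22 mitosis genes none was higher without overlap, since IR edit heart 3 fell within or below the Sham range for all 21 besides Cenpf.

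**Figure D4:**
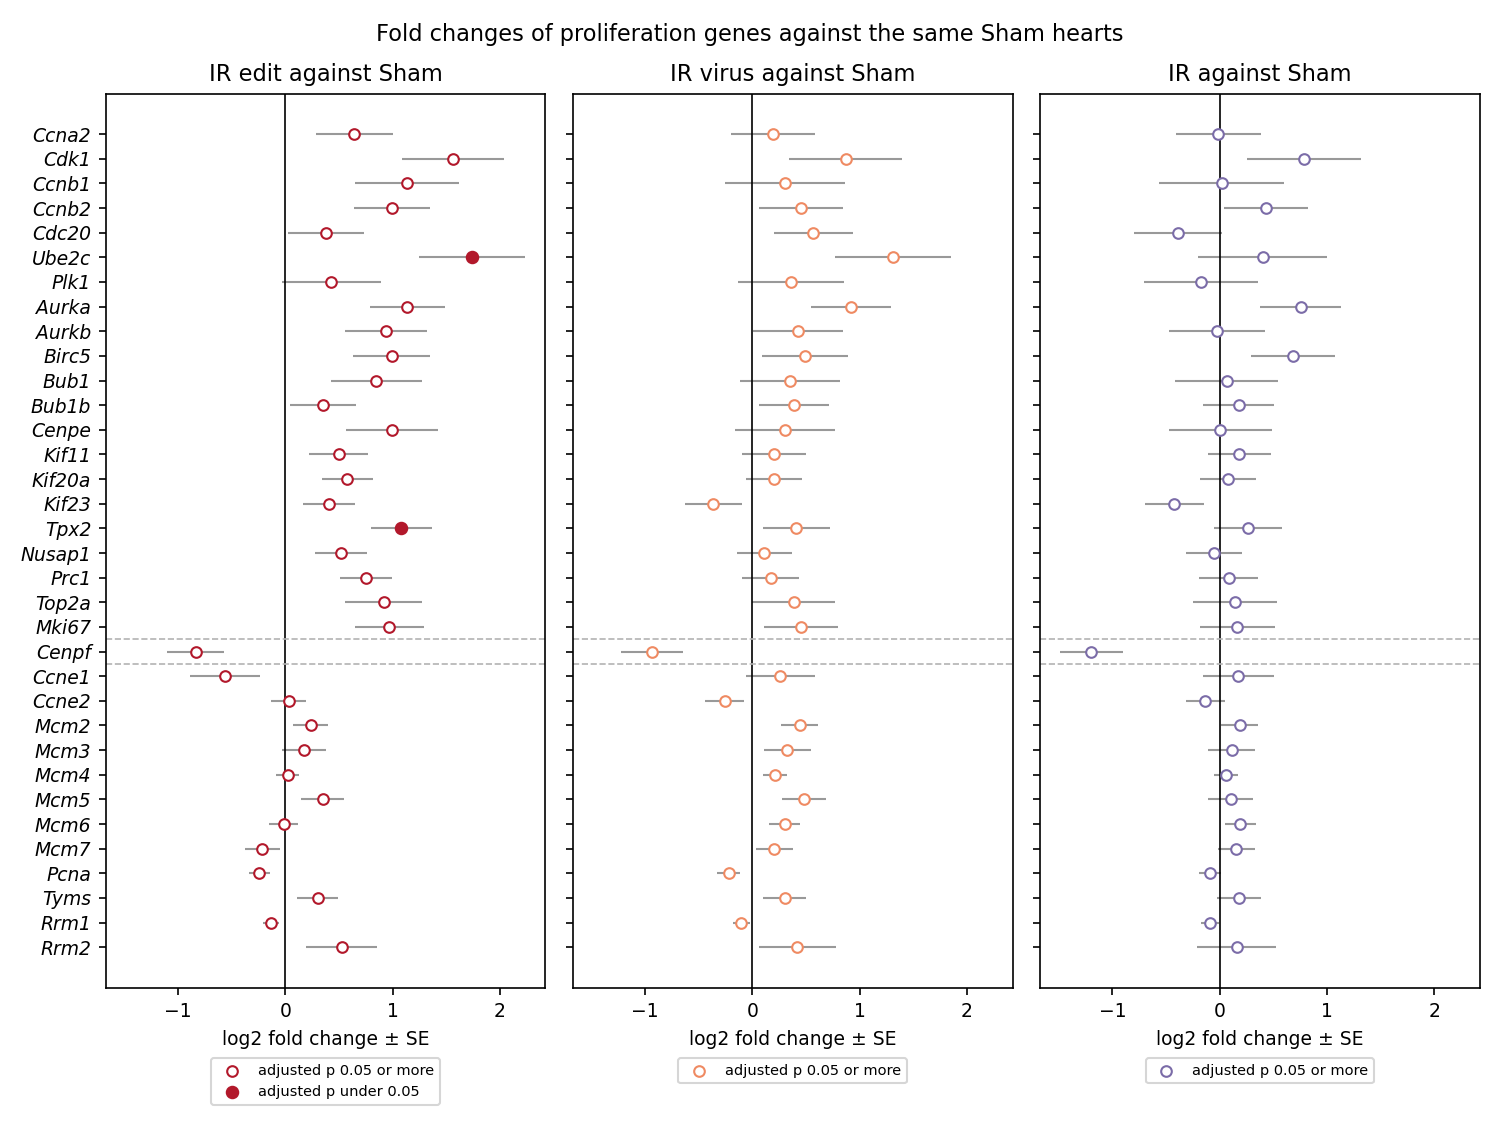
Log2 fold change ± SE (horizontal axis) of each of the 34 genes (rows, by role) in IR edit, IR virus and IR hearts against the same Sham hearts; filled points passed an adjusted p of 0.05. In IR edit against Sham 21 of 22 mitosis genes are right of 0 and Tpx2 and Ube2c passed; Cenpf is left of 0 in all 3.

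In IR virus against Sham, which compares injured hearts given the control virus with uninjured ones, 0 of the 34 genes passed edgeR's test and 0 passed DESeq2's, where 0.0127% of all tested genes passed edgeR's and 1.7% DESeq2's. DESeq2 gave an adjusted p to only 11514 genes in this comparison, so members with few reads may not have been tested by it. At an unadjusted p under 0.05 there were 5 (15.4% of all tested genes), and 29 of 34 log2 fold changes were positive with a median of 0.31. Over all tested genes the median was 0.01, with 51.7% positive. After Cenpf the smallest p belonged to Mcm2, at 5.73, 7.48 and 6.57 CPM in IR virus hearts against 4.64, 5.30 and 4.64 CPM in Sham hearts (log2 fold change 0.44 ± 0.17, adjusted p = 0.252), and to Aurka, at 0.916, 1.43 and 1.05 CPM in IR virus hearts against 0.604, 0.474 and 0.710 CPM in Sham hearts (0.92 ± 0.37, adjusted p = 0.267). Neither gene overlapped between the groups. Groups were apart for 7 genes that were higher (Mcm2, Mcm5, Mcm6, Tyms, Ube2c, Aurka and Aurkb) and 2 that were lower (Pcna and Cenpf), where 11.0% and 10.3% of all tested genes were. Mki67 was at 8.88, 12.3 and 10.9 CPM in IR virus hearts, and Cdk1 at 1.39, 1.89 and 1.09 CPM. Their log2 fold changes were 0.46 ± 0.34 and 0.87 ± 0.53 (adjusted p = 0.534 and 0.437).

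IR against Sham, the injury alone, had a median log2 fold change of 0.08 over the mitosis genes, with 15 of 22 positive. By edgeR 0 of 34 genes passed, and by DESeq2 0, where 0.0127% of all tested genes passed edgeR's test and 0.275% DESeq2's. Only Cenpf had an unadjusted p under 0.05, as did 8.33% of all tested genes. The median log2 fold change of the 34 genes was 0.11 with 24 positive, against 0.00 over all tested genes with 50.2% positive. Aurka was at 1.21, 1.15 and 0.650 CPM in IR hearts against 0.604, 0.474 and 0.710 CPM in Sham hearts (0.75 ± 0.38, adjusted p = 0.628), and Birc5 at 0.996, 0.895 and 0.520 CPM in IR hearts against 0.340, 0.388 and 0.804 CPM in Sham hearts (0.68 ± 0.39, adjusted p = 0.679). In both, IR heart 3 fell within the Sham range. Mki67 was at 8.62, 9.85 and 7.63 CPM in IR hearts, with a log2 fold change of 0.16 ± 0.35 (adjusted p = 0.935). Groups were apart for 0 genes that were higher and 2 that were lower (Rrm1 and Cenpf), where 7.94% and 6.45% of all tested genes were.

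IR edit against IR virus sets the editing system beside the control virus in injured hearts. Again 0 of 34 genes passed by edgeR and 0 by DESeq2, where 0.962% of all tested genes were higher and 1.06% lower by edgeR's test and 3.12% differed by DESeq2's. At an unadjusted p under 0.05, 3 mitosis genes were higher and 3 S phase genes lower, together 6 of 34, against 15.2% of all tested genes. The median log2 fold change was 0.50 over the mitosis genes, 20 of 22 being positive, and -0.14 over the S phase genes, 9 of 12 being negative. Over all tested genes the median was -0.01, with 48.5% positive. Kif23, a kinesin of the central spindle, was at 2.97, 4.39, 2.23 and 3.44 CPM in IR edit hearts against 1.87, 2.27 and 1.6 CPM in IR virus hearts, with 1 IR edit heart just inside the IR virus range (0.77 ± 0.25, adjusted p = 0.143). Mcm7 was at 6.12, 4.48, 3.47 and 5.18 CPM in IR edit hearts against 6.81, 5.92 and 6.73 CPM in IR virus hearts (-0.42 ± 0.16, adjusted p = 0.222). Ccne1 was at 0.556, 0.762, 0.362 and 0.769 CPM in IR edit hearts against 1.39, 1.13 and 0.758 CPM in IR virus hearts (-0.82 ± 0.32, adjusted p = 0.227). Both groups overlapped for these 2 genes. Mcm6 alone was lower in every IR edit heart, where 7.07% of all tested genes were, and no member was higher in every one, against 6.83%. Without IR edit heart 3, 1 of the 34, Prc1, passed as higher (0.78 ± 0.18, adjusted p = 0.0327), where 1.39% of all tested genes did.

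IR edit against IR, which sets edited injured hearts beside uninjected ones, also had 0 of 34 genes past the threshold by edgeR and 0 by DESeq2, where 0.784% of all tested genes were higher and 0.637% lower by edgeR's test and 2.83% differed by DESeq2's. All 22 mitosis genes, Cenpf included, had positive log2 fold changes with a median of 0.72, and 10 of them had an unadjusted p under 0.05; over the 12 S phase genes the median was 0.01, and 2 were lower at that level. Over all tested genes the median was -0.00, with 49.6% positive. In total, 12 of the 34 had an unadjusted p under 0.05, against 14.5% of all tested genes. Kif23 had the smallest p, with 2.97, 4.39, 2.23 and 3.44 CPM in IR edit hearts, all above the 1.73, 2.17 and 1.6 CPM of IR hearts (0.83 ± 0.25, adjusted p = 0.128). It was the only gene of the 34 higher in every IR edit heart, where 5.97% of all tested genes were, and 0 of the 34 were lower in every one, against 6.85%. Tpx2 was at 3.45, 4.08, 1.76 and 4.05 CPM in IR edit hearts against 1.69, 2.05 and 1.99 CPM in IR hearts (0.81 ± 0.28, adjusted p = 0.182) and Ube2c at 1.30, 1.75, 0.259 and 1.58 CPM in IR edit hearts against 0.476, 0.725 and 0.260 CPM in IR hearts (1.34 ± 0.47, adjusted p = 0.202), and IR edit heart 3 lay within or below the IR range for both. Without IR edit heart 3, 8 genes passed as higher (Ube2c, Aurkb, Cdk1, Mki67, Tpx2, Kif23, Prc1 and Nusap1), with log2 fold changes of 0.76 to 1.65, where 1.81% of all tested genes were higher.

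IR virus against IR, which sets the control virus beside no injection in injured hearts, had 0 of 34 genes past the threshold by edgeR and 0 by DESeq2, and 0 of all tested genes passed either test. Cdc20 was the only gene with an unadjusted p under 0.05, where 3.84% of all tested genes had one. It was at 0.796, 1.26 and 1.05 CPM in IR virus hearts against 0.606, 0.554 and 0.433 CPM in IR hearts, without overlap (0.95 ± 0.39, adjusted p = 0.962). Mcm5 and Aurkb were also higher without overlap, making 3 of 34 where 5.86% of all tested genes were, and 0 of 34 were lower without overlap, against 6.09%. The median log2 fold change was 0.17, with 30 of 34 positive. Over all tested genes the median was 0.00, with 50.2% positive. Mcm5 and Ube2c had the next smallest p, with 0.38 ± 0.21 and 0.91 ± 0.52 (adjusted p = 0.962 each).

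Genes of the same pathways that are not among the 34 were counted from lists in the same test of IR edit against Sham. Of all tested genes, 4.61% rose and 3.4% fell in that test, and 49.8% had positive log2 fold changes. Of 51 other mitosis genes tested, 3 rose and 0 fell, 46 were positive and the median log2 fold change was 0.62. The 3 were Cenpa, the histone variant of centromeres (0.35 ± 0.09, adjusted p = 0.0251), Iqgap3 (1.73 ± 0.46, adjusted p = 0.0316) and Ckap2, a spindle protein (1.66 ± 0.45, adjusted p = 0.036), and each was lost without IR edit heart 2 or 4 or Sham heart 1 or 2, with adjusted p of 0.0557 to 0.128. Of 36 other replication genes tested, Mcm10, which helps the helicase start, rose (1.28 ± 0.37, adjusted p = 0.0457) and Pola1, the catalytic subunit of the primase-bound polymerase, fell (-0.44 ± 0.12, adjusted p = 0.0387), with a median of 0.05. Each was lost without any of IR edit hearts 1, 2 and 4 or Sham hearts 1 and 3, with adjusted p of 0.0547 to 0.165, and Mcm10 also without Sham heart 2 (0.128). In the other 5 comparisons edgeR called 0 genes of these 2 lists. At an unadjusted p under 0.05, 25 of the 51 other mitosis genes passed in IR edit against Sham, with 22 up and 3 down, where 23.6% of all tested genes passed. The number was 5 in IR virus against Sham (15.4% of all), 1 in IR against Sham (8.33%), 7 in IR edit against IR virus (15.2%), 11 in IR edit against IR (14.5%) and 2 in IR virus against IR (3.84%).

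Among 25 tested regulators of G1 phase, 1 rose and 3 fell in IR edit against Sham, with a median of 0.00. The shares of all tested genes were 4.61% and 3.4%. E2f3, an activator of S phase genes, rose (0.32, adjusted p = 0.0497), and Tfdp2, an E2F partner, Cdk2, the kinase of S phase entry, and Lin52, a subunit of the DREAM complex, fell by 0.57, 0.36 and 0.42 (adjusted p = 0.0245, 0.0282 and 0.0367). All 4 were lost without IR edit heart 2 or 4, with adjusted p of 0.0638 to 0.159. Leaving out any 1 Sham heart lost 3 of the 4 (adjusted p of 0.0527 to 0.182), and Lin52 was also lost without IR edit heart 1 (0.0667). Foxm1, an activator of mitosis genes, was at 1.15, 2.42, 1.40 and 2.35 CPM in IR edit hearts against 0.755, 0.689 and 1.23 CPM in Sham hearts (1.05 ± 0.31, adjusted p = 0.0521). It was chosen after its values were seen.

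Of 14 tested inhibitors of the cycle, 2 rose and 3 fell in IR edit against Sham, where 4.61% and 3.4% of all tested genes did. Cdkn1a, the inhibitor p21 of cyclin-dependent kinases, was at 26.2, 25.5, 18.3 and 39.4 CPM in IR edit hearts, 7.28, 6.93 and 6.78 CPM in IR virus hearts, 6.41, 8.70 and 7.32 CPM in IR hearts, and 7.40, 5.47 and 6.67 CPM in Sham hearts. All 4 IR edit hearts, heart 3 included, lay above all 9 others. It rose by 2.07 ± 0.21 against Sham (adjusted p = 7.93e-05), by 1.97 ± 0.21 against IR virus (adjusted p = 0.000122) and by 1.87 ± 0.21 against IR (adjusted p = 0.000183), and these calls held under every alternative tried. Btg2, an antiproliferative gene, rose (1.29 ± 0.29, adjusted p = 0.0171), and Cdkn1c, Wee1 and Gadd45a fell by 0.77, 0.89 and 0.58 (adjusted p = 0.0129, 0.0195 and 0.0312). Without Sham heart 1 none of these 4 passed (adjusted p of 0.06 to 0.0988). Btg2 was also lost without Sham heart 2 (0.0515), Wee1 without IR edit heart 2 (0.062) and Gadd45a without IR edit heart 2 (0.101), IR edit heart 4 (0.0978) or Sham heart 3 (0.107). Gadd45a also fell against IR virus (-0.83 ± 0.15, adjusted p = 0.0109) and against IR (-0.69 ± 0.15, adjusted p = 0.0352).

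Summed levels of cell type markers also differed between hearts. The 8 activated fibroblast markers, Postn and Acta2 among them, were all detected in every library and summed to 191, 461, 147 and 681 CPM in IR edit hearts, 226 to 383 in IR virus hearts, 222 to 379 in IR hearts and 123 to 156 in Sham hearts. Hearts 2 and 4 of IR edit were highest, and heart 3 lowest of its group, as for the mitosis genes, but heart 1 was below every IR virus and IR heart. The sum does not stand for each marker. In IR edit against IR virus 6 of the 8 were negative and 2 positive, with a median log2 fold change of -0.10. The 8 fibroblast markers summed to 1346, 1531, 1152 and 1769 CPM in IR edit hearts, 1337 to 1821 in IR virus hearts, 1236 to 1749 in IR hearts and 1054 to 1108 in Sham hearts. The 8 pericyte and smooth muscle markers summed to 1357, 1170, 1428 and 1104 CPM in IR edit hearts, below all 9 others, with 1502 to 1600 in IR virus hearts, 1569 to 1708 in IR hearts and 1584 to 1774 in Sham hearts. Not every marker was lower. In IR edit against Sham 6 of the 8 were negative and 2 positive, and 2 passed edgeR's test as lower. Against IR virus 5 were negative and 3 positive, and 0 passed. Among IR edit hearts the pericyte and smooth muscle sum, like that of the heart muscle markers (45953, 40443, 47394 and 38559 CPM), was highest in heart 3 and lowest in heart 4. The 10 macrophage and monocyte markers, 9 or 10 of them detected, summed to 289, 297, 212 and 297 CPM in IR edit hearts, 267 to 274 in IR virus hearts, 258 to 273 in IR hearts and 190 to 290 in Sham hearts. In IR edit against Sham 7 of the 9 tested were positive and 2 negative, and 1 passed edgeR's test as lower. Against IR virus 5 were positive and 4 negative, and 1 passed as lower. Mitochondrial transcripts took 31.9%, 32.2%, 37.4% and 29.7% of reads in IR edit hearts, 30.7% to 34.7% in IR virus hearts, 34.4% to 35.6% in IR hearts and 34.9% to 38.5% in Sham hearts, with heart 3 of IR edit the highest of its group. The 8 endothelial markers summed to 1103 to 1276 CPM in IR edit hearts, 1224 to 1278 in IR virus hearts, 1267 to 1373 in IR hearts and 1215 to 1292 in Sham hearts. The T and NK cell markers (7 to 9 of 9 detected) summed to 1.21 to 2.75 CPM in IR edit hearts, 1.6 to 2.31 in IR virus hearts, 1.52 to 2.26 in IR hearts and 1.28 to 1.68 in Sham hearts. The B and plasma cell markers (8 of 8 detected) summed to 9.52 to 10.9 CPM in IR edit hearts, 11.2 to 13.3 in IR virus hearts, 10.5 to 12.4 in IR hearts and 7.71 to 10.5 in Sham hearts. This sum does not show the direction of most of its markers. In IR edit against IR virus 5 of the 7 tested were positive and 2 negative, with a median log2 fold change of 0.90. The neutrophil markers (3 to 6 of 8 detected) summed to 1.93 to 2.93 CPM in IR edit hearts, 1.39 to 1.63 in IR virus hearts, 1.45 to 2.60 in IR hearts and 0.947 to 4.64 in Sham hearts, and of these Ly6g and Mpo were at 0 in all 13 libraries. The part of these cell types and of the mitochondrial share in the levels of the mitosis genes was not tested.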

How the data were processed

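RNA of 13 whole hearts was isolated with the RNeasy Micro kit and sequenced after KAPA mRNA HyperPrep library preparation, per the labels' protocols. The deposited files hold whole-number read counts of 53278 gene symbols for each heart, not normalized. Per the submitters' processing notes, the authors used featureCounts 1.6.2, HISAT2 2.1.0, Trimmomatic 0.39, FastQC 0.11.8 and the mm10 build. Neither the gene annotation nor the strand setting is given in the sources used here. Groups came from the sample titles, and no batch is labelled.

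The counts were scaled with TMM and filtered with filterByExpr in edgeR 4.0.16 (R 4.3.3), leaving 15690 genes. A single model of the 4 group means took in all 13 libraries, and each comparison was tested with edgeR's quasi-likelihood method, adjusted after Benjamini-Hochberg over all genes, at a threshold of 0.05. The SE is the absolute log2 fold change over the square root of F. Each p-value weighs a difference between group means against a spread between hearts that was estimated over all 4 groups together. That spread takes in the IR edit hearts, also in comparisons without that group. The members, the gene lists and the tests were chosen with earlier results of these data known. Named were Mki67, Top2a, Cdk1, Ccnb1, Pcna and Mcm2, every member past the threshold, the 3 smallest p per comparison and, from each pathway list, up to 4 called genes per direction.

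On simulated data for IR edit against Sham (15502 genes), 77% of planted 2-fold and 96% of planted 4-fold changes were recovered, and 7.98% of calls were false. The planted genes were drawn at random from all tested genes, and each gene was simulated independently in each heart. The rates therefore need not hold for members with few reads or for genes that share the deviation of a single heart. Exon overlaps came from GENCODE M21 (GRCm38): 10 members overlap another gene and 4 have processed copies, and their counts are uncertain. DESeq2 1.42.0, other scalings and filters, a replicate block, fits of only the 2 groups compared and fits without single hearts were alternatives. DESeq2 leaves genes with low mean counts without an adjusted p, so a member not called by it may not have been tested. The number of genes with one ran from 11514 to 31961 between comparisons.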

Additional observations from a re-analysis of the deposited data

Results flagged for a closer look

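In the IR edit group, Bub1b, a spindle checkpoint kinase, was at 0.931 CPM in heart 3 and at 2.34, 2.60 and 2.47 CPM in hearts 1, 2 and 4. The gap between heart 3 and the nearest other heart, divided by the range of the group, exceeded Dixon's 95% critical value for 4 hearts. It was 1 of 39 genes and sums checked in this way, and chance alone marks about 1 in 20. Heart 3 was also the lowest IR edit heart for the other 20 mitosis genes besides Cenpf, without such a gap.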

How the results depend on the processing

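In IR edit against Sham, where 2 of the 34 genes passed, the count was 11 with no filter on low counts, 5 with DESeq2's Wald test, 0 when only the 2 groups were fitted, 0 without IR edit hearts 2 and 4 together, and between 0 and 14 when single hearts were left out. With no filter the fit took in 31973 genes with an infinite prior number of degrees of freedom, and it called 2 of the 34 in IR virus against Sham (863 of all genes), 1 in IR against Sham (598 of all), 5 in IR edit against IR virus (1018 of all) and 10 in IR edit against IR (1021 of all), where the reported count is 0. Fitting only the 2 groups gave 1 in IR virus against Sham and 1 in IR against Sham, in both Cenpf. Leaving out single hearts gave between 0 and 1 in IR edit against IR virus, between 0 and 8 in IR edit against IR, and 0 elsewhere. With the replicate number as a block, 0 of the 34 genes passed in IR edit against Sham, and 590 of all genes in place of 1257. In IR virus against Sham the block gave 174 calls over all genes in place of 2. Deviations of same-numbered hearts from their group means had a mean correlation of 0.0251 over 18 pairs, 4 of them over 0.1. For hearts with different numbers the mean was -0.0134 over 36 pairs, 3 of them over 0.1. These values do not settle whether the numbers pair hearts. The labels do not say so, and the main fit did not pair them. Over all genes, IR edit against Sham called 2205 with no filter, 246 with only the 2 groups, 158 without IR edit hearts 2 and 4, and 478, 550, 642 and 664 without IR edit heart 2, IR edit heart 4, Sham heart 1 and Sham heart 3. Without Cenpf the log2 ratio of summed levels against Sham was 0.28 for IR edit, 0.16 for IR virus and 0.051 for IR, against -0.04, -0.15 and -0.29 with it; with it, plain library totals gave 0.06 for IR edit, and leaving out single hearts gave -0.12 to 0.10. Single-gene results were checked under the alternatives for part of the genes and comparisons only, mainly those called or with the smallest p. Of these results, 446 kept their side of the threshold and their direction, 112 no longer passed, 21 newly passed, and 0 changed sign. Fold changes near 0 were mostly not among them. Cenpf in IR edit against IR virus, for example, was 0.11 with all hearts and -0.12 without IR edit heart 3. Members under 1 CPM rest on few reads (Ccnb1 on 4 to 24 per heart), which limits what a fold change of that gene can show.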
